A study of Mus musculus with 12 samples.

Results

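The 6 long noncoding RNA genes described here (Neat1, Mirt1, Malat1, Meg3, Miat and Snhg11) were followed in cerebellar cortex of mice on 3 diets, out of 54752 genes in the deposited count table. Neat1 and Mirt1 were chosen by their fold change under dietary restriction in these same libraries, where both were higher, and the other 4 were added as RNAs known to stay in the nucleus. For Neat1 and Mirt1 the levels under dietary restriction are therefore a description and carry no test, and for the other 4 the comparison of dietary restriction with free feeding is given in the same way. All mice were male wild-type C57BL6J/FVB F1 hybrids, killed at 12 weeks of age, with 4 mice per diet. AL mice ate ad libitum, DR mice were restricted stepwise from 7 weeks of age until they received 30% less food in 1 daily meal, and KD mice received a ketogenic diet. According to the paper, AL and DR mice were killed within hours of the onset of dark, and the DR mice had missed that day's meal. Restriction and the missed meal therefore cannot be told apart. The time of each mouse within that window was not used. Lateral and medial cortex were both in the sample, and the deep nuclei were left out. RNA was captured by its poly(A) tail, the libraries kept no strand, and cells were not fractionated, so whether these RNAs were nuclear was not measured.

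The RNAs differ in what they are known to do. Neat1 is the scaffold of paraspeckles, nuclear bodies that hold RNA-binding proteins and edited transcripts, and it is induced in many cell types under stress. It has a short form with a poly(A) tail and a long form that starts at the same place and builds the bodies. Malat1 lies beside Neat1 and gathers in nuclear speckles, where splicing factors are stored. The 3′ ends of Malat1 and of long Neat1 are made by cleavage rather than by poly(A) addition, and each folds a stretch rich in A between stretches rich in U into a triple helix. Meg3 is expressed from the maternal copy of the imprinted Dlk1-Dio3 domain, Miat (also called Gomafu) is a neuronal nuclear RNA with repeated copies of the branch point sequence bound by SF1, and Snhg11 hosts a small nucleolar RNA in its introns and is abundant in neurons.

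Sequences of the 3′ ends are shown first because capture by poly(A) depends on them. In GENCODE M21 transcripts (mouse build GRCm38), long Neat1 (20771 bases) ends at chr19:5824708-5824807, minus strand, and the A-rich tract of Malat1 ends inside its annotated transcript of 6983 bases at chr19:5795982-5796081, minus strand. Both stretches are 100 bases long, and capitals mark the 3 runs of at least 10 bases that they share.
Malat1 A-rich tract: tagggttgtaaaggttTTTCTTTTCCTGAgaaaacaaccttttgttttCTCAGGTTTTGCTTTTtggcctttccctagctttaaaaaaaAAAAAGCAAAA
Neat1 long form end: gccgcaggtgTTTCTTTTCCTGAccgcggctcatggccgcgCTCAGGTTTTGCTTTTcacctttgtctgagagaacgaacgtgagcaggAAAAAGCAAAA
The shared runs were CTCAGGTTTTGCTTTT (16 bases), TTTCTTTTCCTGA (13 bases) and AAAAAGCAAAA (11 bases), in the same order in both RNAs. AAAAAGCAAAA was in the last 120 bases of 70 of 137364 transcripts (0.051%). At any position, it was in 2.33% of transcripts within 20% of the length of Malat1. For the length of long Neat1 this share was 11.5% (7 of 61). A Snhg11 transcript of 5864 bases also held 1 copy. Long Neat1 ended on this run, whereas the annotated Malat1 transcript went on for 292 bases to an end with a poly(A) signal. That end and the end of short Neat1 (3004 bases) are shown with the signal AATAAA in capitals, which 29.8% of transcripts hold in their last 120 bases.
Malat1 annotated end (chr19:5795690-5795789, minus strand): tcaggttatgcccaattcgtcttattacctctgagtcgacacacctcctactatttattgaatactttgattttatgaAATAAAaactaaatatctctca
Neat1 short form end (chr19:5842307-5842406, minus strand): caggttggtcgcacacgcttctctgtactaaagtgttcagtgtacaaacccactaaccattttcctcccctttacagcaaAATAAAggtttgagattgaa
The counts do not separate the forms of Neat1, and a library made from poly(A) RNA takes up the short form in preference to the long one.

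Miat differed from the other 5 in its repeats. The 8758-base transcript Miat-201 held 11 copies of ACTAAC, read in the direction of transcription, while long Neat1 held 4 and the Malat1 transcript above none. Of 1965 transcripts within 20% of the length of Miat-201, 3 held at least as many copies (0.153%). The densest stretch is shown with its 4 copies in capitals.
Miat repeat (chr5:112217309-112217459, minus strand): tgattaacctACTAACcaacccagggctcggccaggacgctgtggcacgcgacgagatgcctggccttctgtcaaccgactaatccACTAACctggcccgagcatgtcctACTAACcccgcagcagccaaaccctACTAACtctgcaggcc

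In the deposited table, whose positions are on GRCm38.p6, Neat1 (ENSMUSG00000092274.3) and Malat1 (ENSMUSG00000092341.2) are single-exon genes on the minus strand of chromosome 19, at 5824708 to 5845478 and 5795690 to 5802672, with 22036 bases between them. Mirt1 (ENSMUSG00000097636.7, 11 exon blocks) lies further along that chromosome at 53441212 to 53464796, Meg3 (ENSMUSG00000021268.17, 8 exon blocks) on chromosome 12 at 109541001 to 109571726, Miat (ENSMUSG00000097767.8, 6 exon blocks) on chromosome 5 at 112213228 to 112229395, and Snhg11 (ENSMUSG00000044349.15, 4 exon blocks) on chromosome 2 at 158375638 to 158386145. The annotation types Snhg11 as protein coding and the other 5 as lincRNA. Other annotated genes shared exonic bases with 5 of the members, from 1.56% of the exonic bases of Snhg11 and 1.85% of Neat1 to 8.29% of Meg3, 13.8% of Malat1 and 30.4% of Miat, and with none of Mirt1. All but 1 of these 16 overlapping genes held no counts, the exception being Gm26953 over Miat with 9 counts in 12 libraries, so reads from the shared bases may be missing from the members.

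Meg3 and Snhg11 were among the most abundant RNAs of the tissue. Levels are given as CPM, a gene's share of the library's counts with the library size scaled by the trimmed mean of M values, and library totals ran from 31712084 to 40798644 counts. By mean CPM over the 12 mice, Meg3 ranked 2, Snhg11 15 and Malat1 27 of 19557 genes that passed the count filter, and Neat1, Mirt1 and Miat ranked 1549, 5816 and 9111. Among 2256 long noncoding RNA genes Meg3 and Malat1 held ranks 1 and 2, Neat1 13, Mirt1 48 and Miat 133. Together the 6 genes took 1.01% to 1.10% of all counts in every library. To compare genes with each other, levels were divided by exonic length: in AL mice Meg3 stood at 343.8 ± 4.45 CPM per kilobase (SD, n = 4), Snhg11 at 297.4 ± 11.5, Malat1 at 231.4 ± 33.1, Neat1 at 4.93 ± 0.544, Mirt1 at 3.22 ± 0.287 and Miat at 1.39 ± 0.162. This order of means held on all 3 diets. Meg3 and Snhg11 overlapped in range on DR, Snhg11 and Malat1 overlapped on DR and KD, and the other neighbours in the order did not overlap on any diet. The distance from Malat1 to Neat1 was 47.0-fold in AL, 44.5-fold in KD and 27.7-fold in DR mice. Since the short form covers only the first part of the Neat1 gene, a level per kilobase over the whole gene understates it.

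Neat1 was 1.96-fold higher in DR than in AL mice, and Mirt1 1.84-fold. Neat1 stood at 104.8, 102.1, 114.9 and 87.5 CPM in AL mice 1 to 4, at 122.3, 130.7, 108.6 and 117.8 in KD mice, and at 206.7, 206.0, 216.9 and 170.9 in DR mice. Every DR mouse lay above every mouse of the other diets, while the AL and KD ranges overlapped. Means were 102.3 ± 11.3 CPM in AL, 119.9 ± 9.20 in KD and 200.1 ± 20.1 in DR mice (SD, n = 4 each), and behind them lay 2761 to 8094 counts per library. The fitted log2 fold change was 0.97 ± 0.0797 (SE) for DR against AL and 0.74 ± 0.0685 for DR against KD. Among 1152 long noncoding RNA genes with a mean over 1 CPM these were the fifth and the tenth highest, which describes the choice of the gene and tests nothing.

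Mirt1, a long noncoding RNA named after myocardial infarction, showed the same order of diets at a lower level than Neat1. AL mice 1 to 4 had 24.3, 28.05, 29.36 and 29.76 CPM, KD mice 29.98, 31.71, 27.5 and 29.06, and DR mice 47.76, 54.54, 59.08 and 43.4. The lowest DR mouse lay above the highest mouse on either other diet, and AL and KD mice overlapped. The means were 27.9 ± 2.49 CPM in AL, 29.6 ± 1.76 in KD and 51.2 ± 6.97 in DR mice (SD, n = 4 each), from 939 to 2054 counts per library. Its log2 fold change was 0.88 ± 0.0885 for DR against AL and 0.79 ± 0.0801 for DR against KD. In both RNAs DR mouse 4 was the lowest of its diet and DR mouse 3 the highest. Counts of Neat1 per count of Mirt1 stood at 3.70 ± 0.578 in AL, 4.05 ± 0.0725 in KD and 3.93 ± 0.288 in DR mice (SD, n = 4 each), so the ranges of the 3 diets overlapped.

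**Figure D1:**
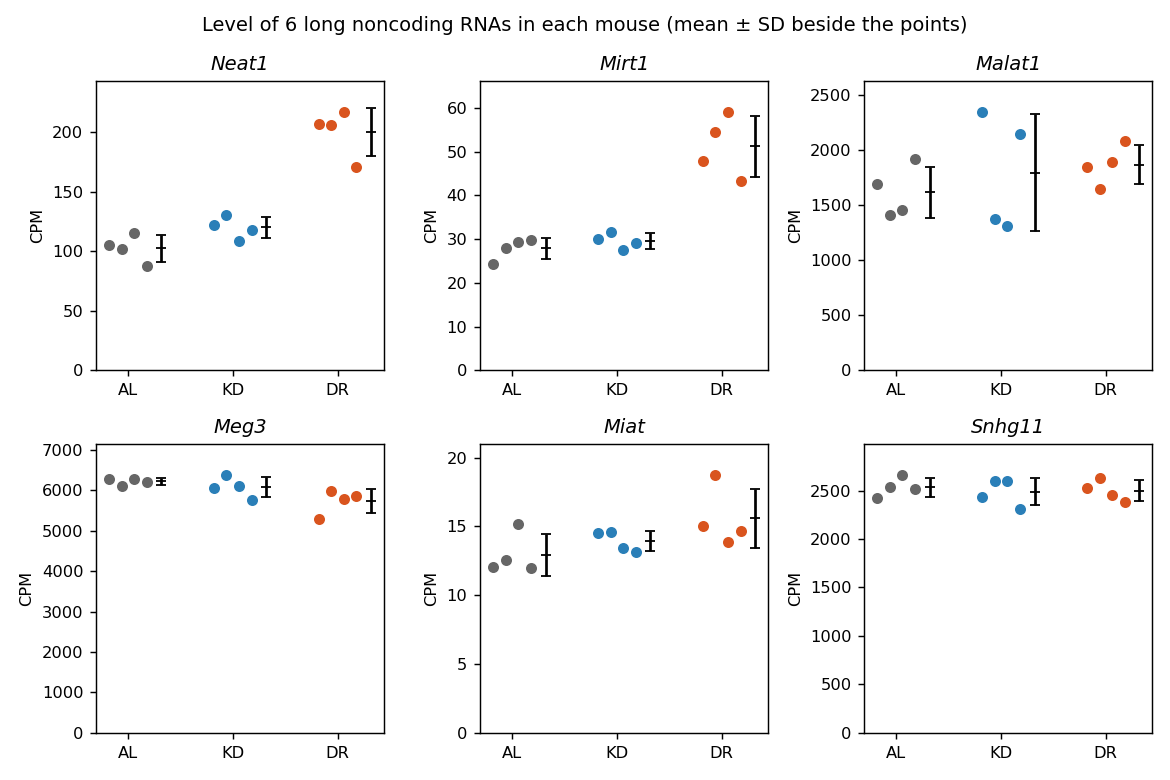
Each panel plots the CPM of 1 RNA (vertical axis, from 0) in the 12 mice by diet; points are mice 1 to 4 from left to right, with the mean and SD beside them. Neat1 and Mirt1 separate the DR mice from the rest, Malat1 splits the KD mice at 1310 to 1369 and 2147 to 2342 CPM, and Snhg11 lies between 2313 and 2663 CPM in all mice.

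Malat1 varied widely between mice, and its ranges overlapped between all diets. How evenly poly(A) capture took it up from library to library was not measured. AL mice 1 to 4 had 1685, 1412, 1454 and 1912 CPM, KD mice 2342, 1369, 1310 and 2147, and DR mice 1842, 1648, 1891 and 2077. The highest and the lowest of the 12 mice were both on KD, and no pair of diets stood apart. Mean levels were 1616 ± 231 CPM in AL, 1792 ± 529 in KD and 1865 ± 177 in DR mice (SD, n = 4 each). The log2 fold change of DR against AL was 0.21 ± 0.0881 (SE), and 0.15 to 0.30 with 1 mouse left out. All 4 DR mice lay above the AL median. Counts of Neat1 per count of Malat1, its neighbour on the chromosome, were 0.0648 ± 0.0145 in AL, 0.0714 ± 0.0213 in KD and 0.109 ± 0.0184 in DR mice (SD, n = 4 each), where the DR range of 0.0823 to 0.125 overlapped the KD range of 0.0522 to 0.0955 and lay above the AL range of 0.0458 to 0.0790.

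Meg3 was 1 of the 3 members whose DR and AL mice did not overlap (10.9% of all genes), in the direction opposite to Neat1 and Mirt1 and by far less. It stood at 6269, 6105, 6282 and 6217 CPM in AL mice 1 to 4, at 6060, 6385, 6113 and 5760 in KD mice, and at 5301, 5977, 5785 and 5861 in DR mice. The KD mice reached into the ranges of both other diets. The log2 fold change of DR against AL was -0.12 ± 0.0496 (SE). DR mouse 1, the lowest, also had the highest share of mitochondrial counts of all 12 libraries (4.22%, others 3.60% to 4.11%), and without it the fold change was -0.08. With the mean of each diet removed, Meg3 was lower in mice with a larger mitochondrial share (Pearson r = -0.813, exact permutation p = 0.00116, adjusted p = 0.0139; Spearman rho = -0.874, exact permutation p = 0.00101, adjusted p = 0.0122, over 12 mice), and r was -0.794 without the 2 mice farthest from the median share. It was the only 1 of 12 relations of the members with mitochondrial share or total counts that passed after adjustment.

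Miat and Snhg11 overlapped between all diets. Miat, the scarcest member with 377 to 601 counts per library, had 12.05, 12.54, 15.15 and 11.95 CPM in AL mice 1 to 4, 14.55, 14.59, 13.46 and 13.15 in KD mice, and 15.02, 18.75, 13.89 and 14.68 in DR mice. DR mouse 2 was the highest and AL mouse 3 lay among the DR mice. Its log2 fold change of DR against AL was 0.27 ± 0.101 (SE), and 0.17 without DR mouse 2. Snhg11 was the steadiest between diets, at 2535 ± 98.0 CPM in AL, 2487 ± 139 in KD and 2497 ± 107 in DR mice (SD, n = 4 each), and its log2 fold change of DR against AL was -0.02 ± 0.0483.

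Among all genes, 583 of 19052 differed between DR and AL mice at an adjusted p under 0.05 (3.06%), and 2 of the 6 members, Neat1 and Mirt1, were in that set; since this contrast chose them, nothing is read from that count. Groups did not overlap for 3 of 6 members, and for 10.9% of all genes. Of the 583 genes 252 were higher (1.32% of those tested) and 331 lower (1.74%) on DR, a split that became 322 higher and 243 lower when libraries were scaled by their totals alone, and the median log2 fold change over all genes was 0.00 with the former scaling and 0.02 with the latter. Among the long noncoding RNA genes as a class, 44 of 2113 were called (2.08%), 34 higher (1.61%) and 10 lower (0.473%), and between DR and KD mice 57 of 2135 (2.67%), 47 higher (2.2%) and 10 lower (0.468%). Because antisense genes cannot be told from their partners without strand, the class was also counted for lincRNA genes with at most 10% of their exonic bases shared, where 15 were higher and 5 lower of 608, and 18 and 3 with scaling by totals alone. Neat1 and Mirt1 were among the higher genes of both counts.

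The KD mice took no part in choosing the members, so KD against AL could be tested for all 6, with the limit that the 4 AL mice had served in the choice of Neat1 and Mirt1 and are shared with the comparison above. None of the 6 passed the test (1 at an unadjusted p under 0.05, 0 called by DESeq2), although Neat1 passed when genes with low counts were not filtered out (edgeR adjusted p = 0.000657, 118 genes called). With the filter, none of 19036 genes passed in the edgeR quasi-likelihood test at an adjusted p under 0.05 (0.0%), with 928 genes at an unadjusted p under 0.05 (4.87%) and 10 genes called by DESeq2. Groups of KD and AL mice did not overlap for 0 of 6 members, and for 2.96% of all genes. Neat1 came nearest, 0.23 higher in KD mice on the log2 scale (95% interval 0.08 to 0.38, unadjusted p = 0.00561, adjusted p = 0.981 in edgeR), and higher than the AL median in 4 of 4 KD mice. In a two-sided exact permutation test over the 8 mice its p was 0.0571, where the smallest p this design can give is 0.0286. The estimate for Mirt1 was 0.09 (95% interval -0.06 to 0.23, edgeR adjusted p = 0.994), and 0.026 without AL mouse 1. For the other 4 the edgeR adjusted p was also 0.994, with 95% intervals of -0.18 to 0.48 for Malat1, -0.11 to 0.05 for Meg3, -0.06 to 0.29 for Miat and -0.12 to 0.07 for Snhg11.

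Between DR and KD mice, which share the DR libraries with the first comparison, 942 of 19087 genes were called (4.94%), 479 higher (2.51%) and 463 lower (2.43%) on DR, or 617 and 376 with scaling by totals alone. Among the 4 members that could be tested there, none passed the threshold in edgeR, at an unadjusted p under 0.05 or in DESeq2. Log2 differences were 0.06 for Malat1 (95% interval -0.25 to 0.36, edgeR adjusted p = 0.885), -0.08 for Meg3 (-0.19 to 0.02, edgeR adjusted p = 0.384), 0.16 for Miat (-0.03 to 0.34, edgeR adjusted p = 0.348) and 0.01 for Snhg11 (-0.10 to 0.11, edgeR adjusted p = 0.969). Without DR mouse 2 the difference of Miat was 0.061. Groups of DR and KD mice did not overlap for 2 of the 6 members, Neat1 and Mirt1, and for 11.8% of all genes.

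**Figure D2:**
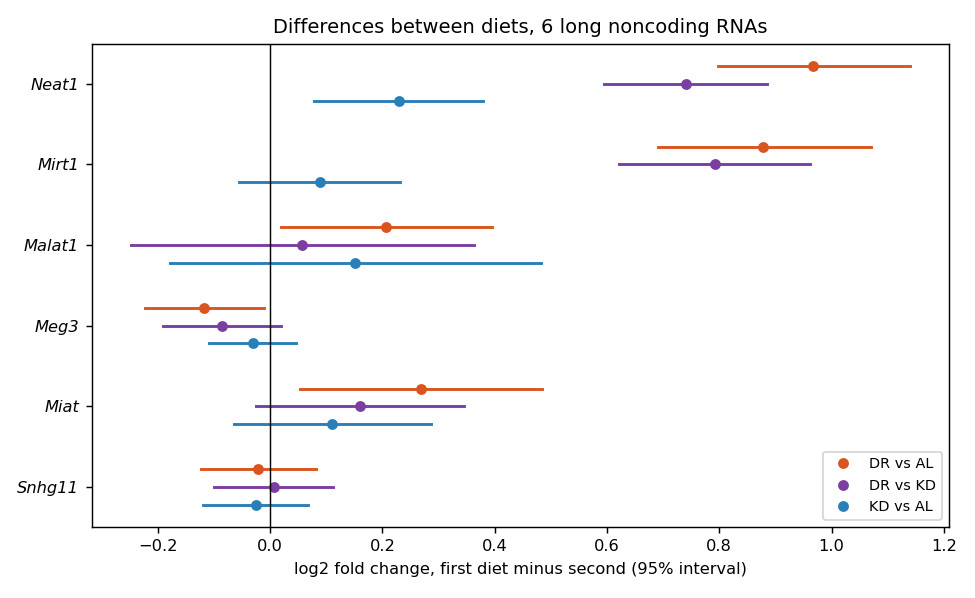
Points give the fitted log2 fold change (horizontal axis, first diet minus second) of each RNA in 3 comparisons, and lines the 95% interval from edgeR without correction for many genes. Neat1 lies at 0.97 and 0.74 and Mirt1 at 0.88 and 0.79 in the 2 comparisons with DR, for which they were chosen. The other 4 RNAs lie between -0.12 and 0.27. For Neat1 and Mirt1 in both comparisons with DR, and for all RNAs in DR against AL, the lines are a description. Whether they reach 0 is no test there.

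The spread between mice on 1 diet was not used in choosing the members, and it set Malat1 apart. Its SD within diets was 0.287 on the log2 scale, above that of all 86 other genes within 2-fold of its level, whose median SD was 0.0746. Neat1 (0.144) and Mirt1 (0.146) lay above 97.0% of 2820 and 93.7% of 4972 genes of like level, and Miat (0.150) above 81.6% of 4183. Snhg11 (0.0672) lay above 28.6% of 42 genes, and Meg3 (0.0575) below all 9. These places are a description, since genes are not independent. Each mouse gave 1 library, so spread between mice cannot be told from spread between libraries, poly(A) capture included. The log2 difference of Malat1 between KD and AL mice, 0.15 with all mice, was -0.0048 without KD mouse 1, 0.051 without KD mouse 4, 0.26 without KD mouse 2 and 0.28 without KD mouse 3.

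**Figure D3:**
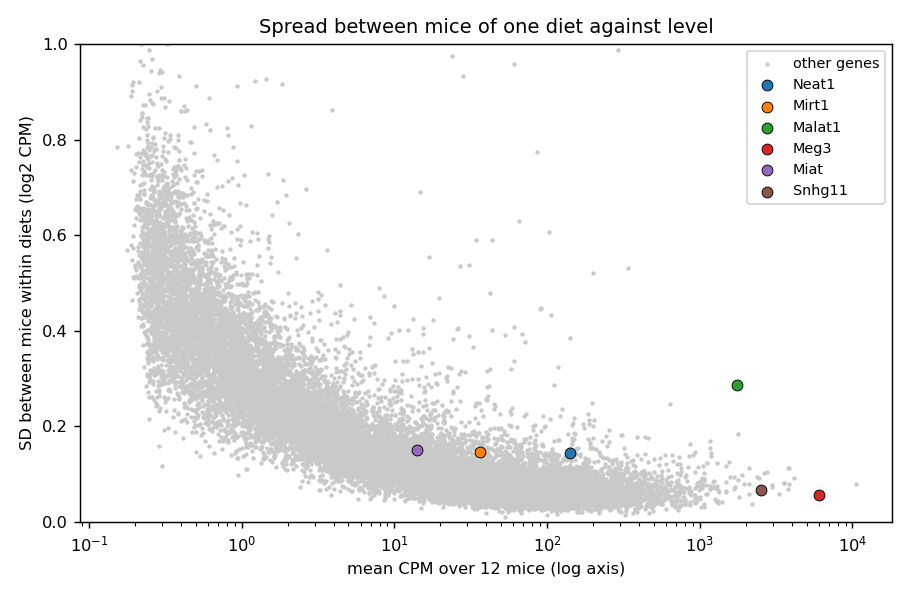
The SD of log2 CPM between mice of a diet (vertical axis) is plotted against mean CPM over 12 mice (log axis) for each gene that passed the filter, with the 6 RNAs in colour; genes with an SD above 1 are not drawn. Malat1 at 0.287 stands above the genes of its level and Meg3 at 0.0575 lies at the lower edge.

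Whether the members varied together from mouse to mouse was asked after the mean of each diet had been removed, over 12 mice and 15 pairs of members, with an exact permutation test that kept every mouse in its diet. None of the 15 pairs passed after adjustment. The strongest relation joined Malat1 and Snhg11, which moved in opposite directions (Pearson r = -0.777, exact permutation p = 0.0238, adjusted p = 0.178; Spearman rho = -0.769, exact permutation p = 0.0159, adjusted p = 0.165), and r was -0.822 without the 2 mice farthest from the Malat1 median. Miat and Snhg11 went together (r = 0.672, exact permutation p = 0.019, adjusted p = 0.178; rho = 0.699, exact permutation p = 0.022, adjusted p = 0.165), with r = 0.438 without the 2 farthest mice. For Neat1 and Mirt1 r was 0.474 (exact permutation p = 0.192, adjusted p = 0.485) and rho 0.559 (exact permutation p = 0.0947, adjusted p = 0.34), with r = 0.583 without the 2 farthest mice. Levels of all members are shares of the same library total, so the pairs are not free of each other.

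**Figure D4:**
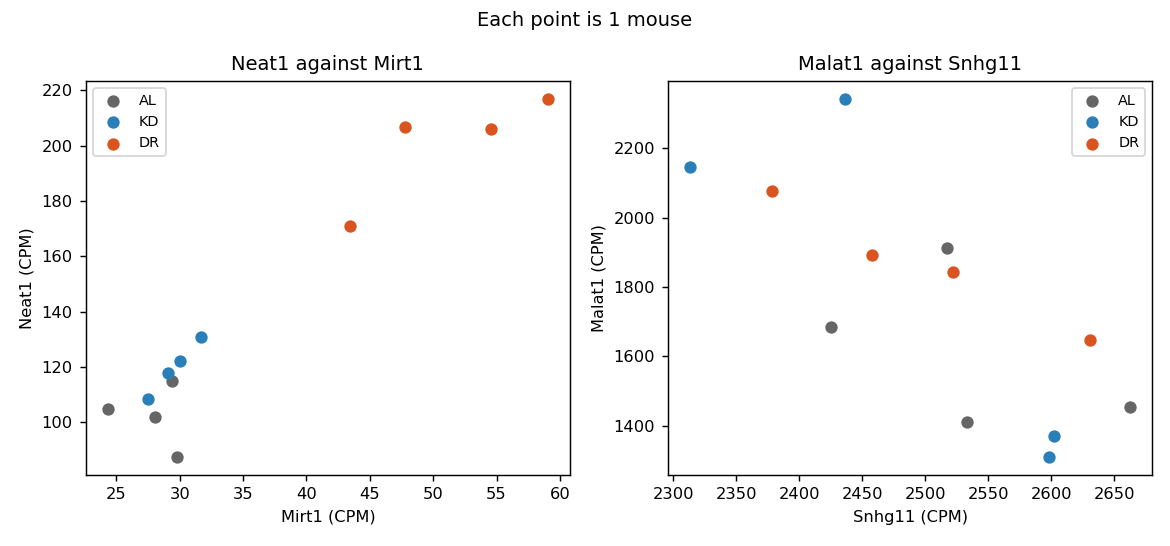
Each point is 1 mouse, coloured by diet, with Neat1 against Mirt1 on the left and Malat1 against Snhg11 on the right (CPM on all axes, which do not start at 0). On the left the 4 DR mice stand apart at 43.4 to 59.1 CPM of Mirt1, and on the right the diets mix, with high Malat1 at low Snhg11.

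By the same measure over 15477 genes whose mean reached 1 CPM, those most like Neat1 within diets were Sfrp4 (r = 0.912), Chmp3 (0.909) and Tppp3 (0.899). Tppp3 encodes a tubulin-binding protein of the TPPP family and was itself higher on DR (log2 fold change 0.32, edgeR adjusted p = 0.0114). Closest to Mirt1 were Acad10 (0.979), Elf1 (0.966) and Invs (0.947). Malat1 had Asb3 (0.929), Mrpl50 (0.877) and Atp5j2 (0.864), Meg3 had A930029G22Rik (0.977), the imprinted gene Peg3 (0.967) and Ttc17 (0.961), Miat had Cacnb1 (0.912), Trub2 (0.908) and Usp24 (0.883), and Snhg11 had Mitf (0.923), Gm25772 (0.887) and Selenon (0.880). These are the highest of many r values over 12 mice and are given without a test.

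None of the neighbouring genes given here, other than the members themselves, passed the test in edgeR. Nearest to Neat1 on the far side from Malat1 was Frmd8os, 145 bases away, at 0.745 ± 0.161 CPM in AL and 1.13 ± 0.494 in DR mice (SD, n = 4 each), which did not pass the test (log2 fold change 0.59, edgeR adjusted p = 0.296) and shares 63.4% of its exonic bases with other genes. Mirt1 stood between Smndc1 (-0.02, edgeR adjusted p = 0.934) and Dusp5 (-0.10, edgeR adjusted p = 0.459), 50639 and 64313 bases away. The neighbours Begain of Meg3, Mn1 and Crybb1 of Miat, and Snhg17 and Ralgapb of Snhg11 did not pass in any pair of diets, nor did Mir3070a beyond Meg3 in the DR and KD mice, having been too scarce for the test of DR against AL.

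Genes for the proteins that build paraspeckles and speckles were counted against the share of all genes called, which was 3.06% for DR against AL and 4.94% for DR against KD (3429 of 19052 and 3565 of 19087 at an unadjusted p under 0.05, and 928 of 19036 for KD against AL). Of 33 paraspeckle protein genes, none passed in any of the 3 comparisons in edgeR (0, 1 and 2 at an unadjusted p under 0.05 for KD against AL, DR against AL and DR against KD, and 0, 0 and 1 called by DESeq2, the last being Tardbp, named after its value was seen), 18 were above and 15 below 0 for DR against AL, and their median log2 fold change was 0.01 against 0.00 for all genes. Hnrnph1, among the most abundant of them, stood at 711.6 ± 25.0 CPM in AL and 703.9 ± 12.7 in DR mice (SD, n = 4 each). Of 28 nuclear speckle protein genes, none passed for DR against AL in edgeR (3 at an unadjusted p under 0.05, 2 called by DESeq2) and 1 passed for DR against KD, Clk1, a kinase of splicing factors, which was higher on DR (252.4 ± 16.7 against 215.8 ± 8.09 CPM, log2 fold change 0.23 ± 0.0503, edgeR adjusted p = 0.0162). The most abundant speckle genes, Srrm2 and Son, stayed within 0.08 of 0 on the log2 scale in all comparisons.

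Related noncoding RNA genes were counted against the same shares. None of the 15 tested host genes of small nucleolar RNAs, the family of Snhg11, passed in any comparison in edgeR (0, 1 and 2 at an unadjusted p under 0.05 in the same order, and 0 called by DESeq2), yet 14 of 15 lay above 0 for DR against AL with a median log2 fold change of 0.08, against 0.00 for all genes. Gas5 (55.4 ± 4.07 CPM in AL, 57.2 ± 1.14 in DR mice) and Snhg14 (186.1 ± 10.6 and 186.4 ± 11.6) were the most abundant of them. In the Dlk1-Dio3 domain of Meg3, none of 7 tested genes passed in edgeR (0, 2 and 2 at an unadjusted p under 0.05, with 1 called by DESeq2, Rian for DR against KD), and Rian, the next noncoding RNA of the domain, stood at 732.2 ± 31.2 CPM in AL, 754.6 ± 31.3 in KD and 671.6 ± 47.1 in DR mice (DR against AL: log2 fold change -0.12, edgeR adjusted p = 0.236). Of 19 tested other long noncoding RNAs of brain, none passed for DR against AL in edgeR (3 at an unadjusted p under 0.05, 0 called by DESeq2), none passed for KD against AL (4 at an unadjusted p under 0.05, 0 called by DESeq2), and 1 passed for DR against KD, Sox2ot, which overlaps the stem cell factor gene Sox2 and was lower on DR (14.4 ± 0.694 against 19.1 ± 1.24 CPM, log2 fold change -0.41 ± 0.0679, edgeR adjusted p = 0.0022). As among the host genes, most of these 19 lay above 0 for DR against AL (14, median log2 fold change 0.07).

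Among 12 transcription factors known to act on Neat1, 2 passed for DR against AL, both lower, where 1.74% of all genes were lower. Nr3c1, the glucocorticoid receptor, fell from 93.6 ± 4.96 to 77.3 ± 3.01 CPM (log2 fold change -0.27 ± 0.0486, edgeR adjusted p = 0.00821), and E2f1, a cell cycle factor, from 1.94 ± 0.199 to 1.15 ± 0.142 CPM (-0.76 ± 0.171, edgeR adjusted p = 0.0279). Both were also lower on DR than on KD (edgeR adjusted p = 0.00075 and 0.0168). The hypoxia factor Epas1 and its partner Arnt, the most abundant of the list, did not pass. Of 32 genes of nuclear RNA modification, cleavage and decay, 1 passed for DR against AL, at the share of all genes called (3.06%). It was Dgcr8, a partner of the microRNA-processing enzyme Drosha, which was higher on DR (84.0 ± 1.37 against 96.4 ± 6.74 CPM, log2 fold change 0.20 ± 0.0506, edgeR adjusted p = 0.0475, and 0.0507 with RLE scaling). Dgcr8 was also higher on DR than on KD (log2 fold change 0.27 ± 0.05, edgeR adjusted p = 0.00579, and 0.00644 with RLE scaling). It was the only 1 of the 32 to pass there, where 4.94% of all genes were called. Of the exonic bases of Dgcr8, 17.1% are shared with other genes. Drosha itself (123.5 ± 3.69 and 123.3 ± 8.67 CPM) and Upf1 did not pass.

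**Figure D5:**
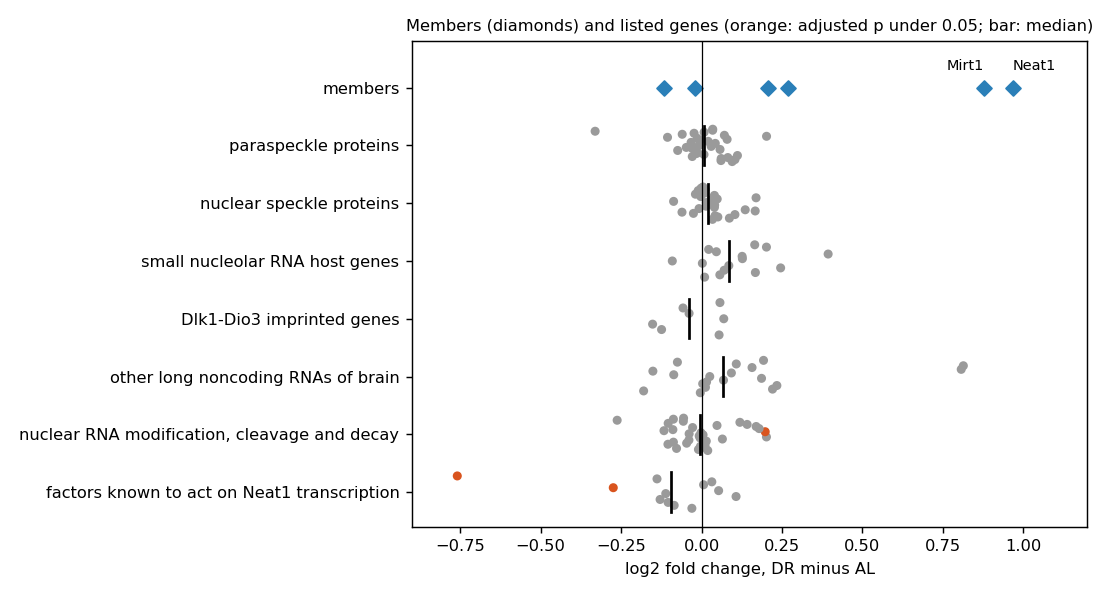
The log2 fold change of DR against AL (horizontal axis) is shown for the 6 RNAs (diamonds) and the tested genes of 7 lists (1 point per gene, orange where the adjusted p was under 0.05, bar at the list's median). Neat1 and Mirt1 lie at 0.97 and 0.88, and the paraspeckle and speckle genes gather about 0.

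The promoters of Mirt1 and Meg3 are printed from 250 bases before to 50 after the start on GRCm38.p6. Of the members with an entry in RefSeq, they alone held a match to a motif searched. Malat1, Miat and Snhg11 also have entries, which are not printed, and none was found for Neat1. Any link between a motif and the direction on DR was not tested. Motifs searched on both strands were the cAMP response element TGACGTCA (in 1.79% of 32851 promoters), the E-box CACGTG (7.15%) and the AP-1 site TGANTCA (7.81%), with matches in capitals.
Mirt1 promoter (chr19:53464747-53465046, minus strand): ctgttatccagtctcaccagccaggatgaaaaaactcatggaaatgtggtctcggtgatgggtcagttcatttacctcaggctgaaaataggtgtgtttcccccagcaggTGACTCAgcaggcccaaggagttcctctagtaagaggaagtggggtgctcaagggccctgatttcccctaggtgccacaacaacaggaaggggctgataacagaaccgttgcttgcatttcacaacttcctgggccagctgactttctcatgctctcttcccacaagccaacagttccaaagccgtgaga
Meg3 promoter (chr12:109540746-109541045, plus strand): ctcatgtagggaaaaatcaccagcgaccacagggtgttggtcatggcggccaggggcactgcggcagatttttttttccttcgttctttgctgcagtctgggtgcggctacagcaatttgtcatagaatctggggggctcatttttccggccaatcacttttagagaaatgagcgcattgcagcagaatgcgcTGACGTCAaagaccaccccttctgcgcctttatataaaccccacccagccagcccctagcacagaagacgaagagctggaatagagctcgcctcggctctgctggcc
Mirt1 held 1 AP-1 match 140 bases before the start and Meg3 1 cAMP response element 57 bases before it. None of these motifs was found in the windows of Malat1, Miat, Snhg11 or the second start of Meg3. The share of promoters that hold any of these motifs was not counted, so the number of members with a match is not read as a result. A match is a stretch of letters and was not tested for binding.

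The tissue matched its label, with all 6 Purkinje cell and all 6 granule cell markers present. Summed markers of Purkinje cells and of Bergmann glia and astrocytes did not overlap between DR and AL mice. Summed Purkinje cell markers stood at 5455 to 6296 CPM in DR and 6464 to 6943 in AL mice, with 0 of 6 markers above 0 and 1 passing the test, and summed markers of Bergmann glia and astrocytes at 1547 to 1603 and 1750 to 1882 CPM, with 0 of 5 above 0 and 2 passing. Oligodendrocyte markers (1932 to 2408 in DR, 2055 to 2655 in AL mice), microglia (40.5 to 46.5 and 43.3 to 48.4), endothelium (125.7 to 127.4 and 118.7 to 138.8) and granule cells (5404 to 5541 and 5193 to 5671) overlapped in sum, though 1 of 5 oligodendrocyte markers passed the test with 1 of 5 above 0. Against KD mice, 1 of 6 Purkinje cell, 2 of 5 Bergmann glia and astrocyte, 2 of 5 oligodendrocyte, 2 of 6 granule cell and 1 of 5 choroid plexus markers passed. Of all genes, 3.06% were called for DR against AL and 4.94% for DR against KD. With so few markers per cell type, the counts of passing markers are a description. Choroid plexus markers (20.5 to 26.8 and 23.7 to 25.1), meningeal fibroblasts (40.6 to 55.3 and 48.1 to 57.3), red blood cells (175.6 to 493.7 and 274.8 to 422.9) and genes of neurons outside the cerebellar cortex (3215 to 3552 and 3086 to 3399, a list that holds Snap25, which granule cells also express) overlapped too, with Folr1 and Slc6a3 under 0.1 CPM. Their part in the levels of the 6 RNAs was not tested. In bulk tissue fewer cells of a type and less RNA per cell cannot be told apart.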

How the data were processed

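RNA from cerebellar cortex of 12 mice (4 per diet) was sequenced after poly(A) capture with the TruSeq V2 kit, which keeps no strand. The authors chose 4 of 6 mice per diet by RNA quality for AL and DR. Per the labels, reads were trimmed with Trimmomatic 0.39, aligned with STAR 2.7.0f to GRCm38.p6 and assigned to genes with featureCounts of Subread 1.6.4. The deposited values are raw counts per gene for 54752 genes, with no normalization, and library totals were 31712084 to 40798644. Symbols were matched through GENCODE M21.

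Counts of each pair of diets (8 libraries) were passed through filterByExpr (at least 10 counts in enough libraries, 15 in all), given TMM factors and compared by quasi-likelihood (edgeR 4.0.16, under R 4.3.3), where calls are genes whose p after Benjamini-Hochberg adjustment over the whole table fell under 0.05. SE are from that fit and 95% intervals use its t distribution. CPM per mouse used TMM factors over 12 libraries, and log2 CPM a prior count of 2. Counts were also simulated from each comparison, with the same spread for all genes and changes only in genes above 10 CPM. For DR vs AL, 100 of 100 genes changed 1.5-fold were recovered among 19050 genes, with 14 false calls in that run. Real genes differ in spread, so this checks the procedure and does not measure power for the members or for smaller changes. Alternatives were DESeq2 1.42.0, RLE and total scaling, 2 filters, all 12 libraries in 1 fit, scaling by the other 4 members (all but Neat1 and Mirt1), and leaving out each mouse.

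The members and the lists were chosen with earlier results of these data known. Genes named are the 6 members; of each list, those passing in any pair and the 2 most abundant; genes overlapping or next to a member; and the 3 genes most like each member. Mice were numbered in the order of the samples. No source used here names litters or batches, so neither could be accounted for. The p-values set differences against the spread between these mice, whatever its source. Some genes that this rule names are not reported here.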

Additional observations from a re-analysis of the deposited data

Results flagged for a closer look

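DR mouse 1 had 4.22% of its counts on mitochondrial genes, against 3.66% to 3.69% in the other DR mice, a gap of 0.943 of the range of the diet. It was the only such sample in 30 groups of 4 checked (levels of the 6 RNAs, the 2 Neat1 ratios, total counts and mitochondrial share on each diet), and chance alone is set to give about 1 in 20. The same mouse had the lowest Meg3 level of all 12, at 5301 CPM.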

How the results depend on the processing

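Neat1 and Mirt1 kept their direction under all 15 alternatives for DR against AL (log2 fold change 0.90 to 1.04 and 0.80 to 0.95) and for DR against KD (0.70 to 0.81 and 0.72 to 0.86). They were chosen for being higher on DR in these same mice, so the kept direction is a description and no support. With no filter on low counts, Neat1 passed for KD against AL (log2 fold change 0.23, edgeR adjusted p = 0.000657), against 0.981 with the filter, and 118, 1258 and 1503 genes were called for KD against AL, DR against AL and DR against KD, where the filtered fits called 0, 583 and 942; the cause was not tested. DESeq2 called 10 for KD against AL and 1012 for DR against AL. For Snhg11, DR against AL became 0.00016 with scaling by totals alone and 0.017 with scaling by Malat1, Meg3, Miat and Snhg11 together. The latter scaling holds Snhg11 itself and Meg3, the most abundant of these RNAs, which was lower on DR. It is therefore no independent check of Snhg11. Without the 2 farthest mice, r turned to 0.0447 for Neat1 and Malat1 and to 0.0772 for Mirt1 and Malat1.

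Leaving out 1 mouse gave 0 to 6 calls for KD against AL (6 without AL mouse 1, 2 without AL mouse 3, 5 without AL mouse 4), 235 to 712 for DR against AL (264, 276 and 244 without AL mouse 1, 2 and 4, 353 and 235 without DR mouse 1 and 3) and 467 to 946 for DR against KD (520 without DR mouse 3, and 526, 467 and 601 without KD mouse 1, 3 and 4). It gave log2 fold changes of -0.0048 to 0.28 (KD against AL) and -0.067 to 0.21 (DR against KD) for Malat1, and for Snhg11 of -0.049 to 0.0057 (KD against AL), -0.047 to 0.0061 (DR against AL) and -0.028 to 0.029 (DR against KD). For KD against AL it gave 0.026 to 0.12 for Mirt1, -0.056 to -0.0079 for Meg3 and 0.076 to 0.20 for Miat, and for DR against KD -0.11 to -0.050 for Meg3 and 0.061 to 0.21 for Miat. No paired analysis was possible because the labels number each mouse once and tie none across diets. Depth limits Miat most, at 377 to 601 counts per library.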

Other observations

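When the mean of each diet was kept, the genes most like Neat1 over the 12 mice were Ccdc191 (r = 0.968), Tppp3 (0.962) and Cyth1 (0.958), of which 1 was also among the 3 most alike within diets. For Mirt1 they were Cc2d2a (0.978), C2cd5 (0.961) and Neat1 itself (0.944), none of them shared with the list within diets. These r values rest on the difference between diets that chose both RNAs, and are given as a description.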
